A study of Homo sapiens with 6 samples.

Results

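The data compared KY170R with KY170 on the 4 arrays taken 8 and 24 h after irradiation. KY170 (kyse170 in the labels) is a line of human esophageal squamous cancer and is labelled sensitive to radiation. KY170R is its radioresistant derivative, raised from KY170 by repeated fractionated irradiation. The members were the KY170R arrays at 8 h and 24 h and the KY170 arrays at the same times, which are 4 of the 6 arrays. The arrays at 0 h entered neither the choice of probes nor the test and served as a separate look at the same lines. All arrays share the culture medium and the linear accelerator named in the protocols, and no source used here states the dose given before 8 and 24 h. Each line and time had 1 array. KY170R is described as a resistant clone, so the comparison is of 1 derived line with 1 parental line, and a difference caused by resistance cannot be told apart from any other difference between them.

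Ionizing radiation kills cells largely through DNA breaks and reactive oxygen species. Cells limit oxidative damage with enzymes that reduce peroxides, aldehydes, quinones and other carbonyls, many of which are switched on by the transcription factor NRF2. AKR1C3, the gene the study followed, encodes an aldo-keto reductase that acts on prostaglandins, steroids and other carbonyl compounds. Irradiated cells can also turn on interferon and NF-kB target genes, which encode antiviral proteins, antigen-presenting molecules and cytokines. Squamous epithelium is built in layers, with KRT5 and KRT14 as the keratins of its basal cells and KRT13 as a keratin of the upper layers in the esophagus.

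Values are fluorescence intensities of bead-array probes. Values below a limit of 24.533 were raised to it before log2 was taken. The limit is the size of the lowest value on any of the 6 arrays. Of 48803 probes, 16333 lay above the limit on at least 2 of the 4 arrays and were tested, and 13600 lay above it on all 4. Intensities had been normalized between arrays, so 32.3% of probes exceeded the limit on every array by construction. Squamous markers were present, with KRT5, DSG3, SOX2 and PKP1 above the limit on all 4 arrays, as were the simple-epithelial keratins KRT8 and KRT18. The stromal, endothelial and immune markers COL3A1, LUM, DCN, PDGFRB, VWF, KDR, PTPRC, CD3D and LYZ stayed below it on all 4. Other markers of those classes did not: VIM (32.6 to 52.4) and CD14 (27.3 to 62.3) were dimly above it on all 4, COL1A1 and PECAM1 on 3, and CDH5 on the 2 KY170 arrays. Their part in the results was not tested.

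The lines differed at 148 probes that were higher in KY170R (0.906% of those tested) and 99 that were lower (0.606%), at a Benjamini-Hochberg adjusted p under 0.05 in limma with line and time as terms. The smallest adjusted p was 3.0e-04, and 2500 probes had an unadjusted p under 0.05. With each gene taken by its brightest tested probe, 109 of 10117 genes were higher in KY170R (1.08%) and 72 were lower (0.712%). These calls rest on 1 residual degree of freedom per probe and on the borrowed spread of other probes: without the time term, which pairs the arrays, 0 probes were called and 534 had an unadjusted p under 0.05. With values raised to 50 the test called 1 probe, and the methods' t-test called 9 after adjustment. A count that needs no test was also made. At least a 2-fold difference in the same direction at both times was seen at 190 probes higher and 167 lower in KY170R, together 2.19% of those tested, and 229 of the 247 called probes were among them. Another 16 probes were at least 2-fold apart in opposite directions at the 2 times.

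**Figure D1:**
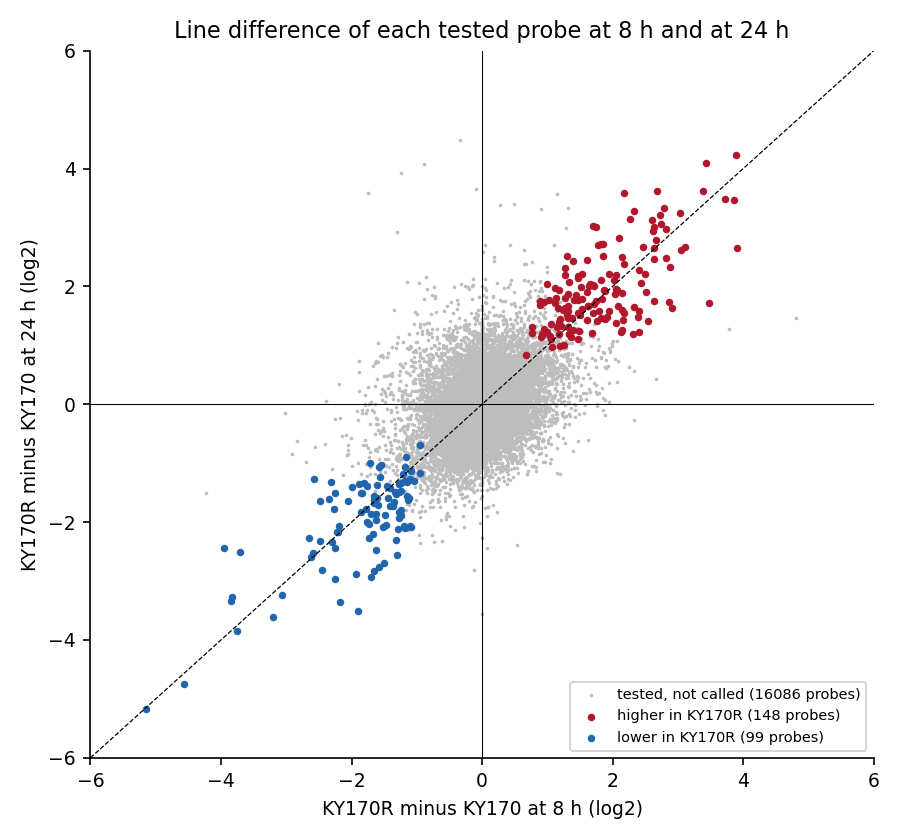
Log2 difference between the lines (KY170R minus KY170) at 8 h on the horizontal axis and at 24 h on the vertical axis, 1 point per tested probe, with called probes in red (148 higher) and blue (99 lower) and the dashed line marking equal differences. The called probes lie along the dashed line in the upper right and lower left corners. The test favours large differences that are similar at both times, so this position follows from how probes were called.

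Genes of peroxide and carbonyl metabolism held several of the largest differences in favour of KY170R. AKR1C3 read 547 at 8 h and 1096 at 24 h in KY170, against 3402 and 8805 in KY170R. Both KY170R arrays exceeded both KY170 arrays, and the difference was 2.82 ± 0.19 on the log2 scale (SE, 2 arrays per line), or 7.07-fold (limma adjusted p = 4.2e-04). The difference was 6.22-fold at 8 h and 8.03-fold at 24 h. AKR1C2, a relative that acts mainly on steroids, read 1851 and 2655 in KY170 against 11333 and 20321 in KY170R, which was 6.85-fold higher (limma adjusted p = 3.0e-04). AKR1C genes are nearly identical in sequence, so the probes may share signal. AKR1C1 and AKR1C4 did not pass the filter on low values, and the other 4 probes of AKR1C2 lay below the limit, apart from 1 reading of 213.8 in KY170R at 24 h.

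GPX2, a glutathione peroxidase of epithelia, read 370 and 473 in KY170 against 5348 and 5206 in its derivative. The groups were more than 10-fold apart at each time, and the mean difference was 12.6-fold (log2 difference 3.66 ± 0.20, limma adjusted p = 3.0e-04). CYP4F11, a cytochrome P450 that hydroxylates fatty acids, read 37.0 and 83.9 in KY170 against 387 and 1031 in KY170R, an 11.3-fold difference (limma adjusted p = 7.0e-04). ALDH3A1, which oxidizes aldehydes, read 139 and 150 against 964 and 1512, an 8.36-fold difference (limma adjusted p = 0.00103). PTGR1, a reductase of prostaglandins and leukotrienes, was 3.14-fold higher in KY170R (limma adjusted p = 0.00799). NQO1, which reduces quinones, was 1.99-fold higher (limma adjusted p = 0.0480), the weakest call of the group. For each of these genes both KY170R arrays lay above both KY170 arrays.

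Of 27 tested genes in a list of NRF2 targets, these 5 were higher in KY170R, 0 were lower and 22 did not pass the test. The called share was 18.5%, beside 1.79% of all tested genes. The median difference of the list was 0.51 on the log2 scale, beside -0.002 over all tested genes, and 21 of the 27 were higher in KY170R at both times, beside 3034 of all 10117 tested genes. Members that did not pass included SLC7A11, the cystine transporter, at 1.42 (adjusted p = 0.0584 in limma), and GCLM, a subunit of the enzyme that makes glutathione, at 0.16 (adjusted p = 0.827). NFE2L2, which encodes NRF2, had a difference of 0.45, and its inhibitor KEAP1 one of -0.43, neither past the test. A list of NRF2 regulators and small Maf genes was mixed, with 0 calls among 9 tested genes and a median of 0.09. At both times 3 of the 9 were higher and 3 lower in KY170R. RBX1 was at -1.25 and BACH2 at -0.57 in that list. In a list of antioxidant enzymes GPX2 was the only call among 20 tested genes. The lists of glutathione transferases and of other aldo-keto reductases had 0 calls among 12 and 6 tested members, and AKR1B10 in the latter was at 1.44 (adjusted p = 0.0847).

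The promoter of GPX2 is shown because it holds the core of the antioxidant response element, which NRF2 binds, written TGACNNNGC and searched on both strands from 250 bases before to 50 bases after each gene start. Capitals mark the match, which here lies on the reverse strand and begins at -122 from the start.
GPX2, chr14:64942829-64942897, minus strand, GRCh38.p14: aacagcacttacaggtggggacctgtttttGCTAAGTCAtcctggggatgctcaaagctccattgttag
The motif was held by 18.9% of the promoters found for genes higher in KY170R (17 of 90), by 19.3% of those lower (11 of 57), by 20.0% of tested genes and by 16.1% of all RefSeq promoters of that length. The share among the higher genes was near that of the tested genes.

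The called interferon-stimulated genes were all higher in KY170R. Of 29 tested members, 6 were higher, 0 were lower and 23 did not pass the test. The called share was 20.7%, beside 1.79% of all tested genes. The median difference was 0.93, beside -0.002 over all tested genes. At both times 86.2% of the members were higher, beside 30% of all tested genes. DDX60, an RNA helicase of the antiviral response, read 98.7 and 295 in KY170 against 312 and 1219 in KY170R, a 3.61-fold difference (limma adjusted p = 0.0113). IFI44 read 115 and 458 against 608 and 1073 (3.51-fold, limma adjusted p = 0.0259), and the KY170R array at 8 h exceeded the KY170 array at 24 h. IFI6, a mitochondrial survival protein, read 492 and 625 against 2148 and 1457 (3.19-fold, limma adjusted p = 0.0183). A second IFI6 probe, dimmer than the first, gave a log2 difference of 3.28. OASL, HERC5 (a ligase of the ubiquitin-like ISG15) and RIGI, the sensor of viral RNA, were 3.14-fold, 2.68-fold and 3.37-fold higher, with limma adjusted p-values of 0.0135, 0.0119 and 0.0495. For DDX60, HERC5 and RIGI the KY170 array at 24 h still lay below the KY170R array at 8 h. For OASL it lay above it (436 against 302), so the lines were apart only within a time. A second OASL probe, not called, gave a log2 difference of 1.17. Leaving out an array together with the time term moved DDX60 between 0.87 and 2.84 and OASL between 0.55 and 2.75, lowest without the KY170R array at 24 h. It moved IFI44 between 0.82 and 2.81 and RIGI between 0.68 and 2.82, lowest without the KY170 array at 8 h. Within a time, the differences at 8 and 24 h were 3.16-fold and 4.13-fold for DDX60 and 3.09-fold and 3.18-fold for OASL. They were 5.28-fold and 2.34-fold for IFI44 and 4.95-fold and 2.29-fold for RIGI. MX1, a classical member, was at -0.06 and IFITM1 at -0.49, neither past the test.

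IFI27 carried the largest member difference and was not called. It read 36.3 and 76.9 in KY170 against 1021 and 212, a difference of 4.81 on the log2 scale at 8 h and 1.46 at 24 h (limma adjusted p = 0.141). Both KY170R arrays lay above both KY170 arrays.

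Genes of antigen presentation held 3 calls (15% of those tested, beside 1.79% of all tested genes), all higher in KY170R. HLA-B, a class I antigen-presenting molecule, read 267 and 334 in KY170 against 1961 and 1683 in KY170R, 6.09-fold higher (limma adjusted p = 0.00158). PSMB9, a catalytic subunit of the immunoproteasome, read 333 and 252 against 1368 and 922, 3.88-fold higher (limma adjusted p = 0.00565). TAP1, a peptide transporter, read 643 and 1220 against 1778 and 2642, 2.45-fold higher (limma adjusted p = 0.0201). The other 17 of 20 tested members did not pass, among them B2M, the light chain of class I molecules, at 0.39. HLA genes resemble each other and probes can cross-hybridize, so HLA-B is uncertain as to the gene. Of 27 subunits of the constitutive proteasome 0 were called, with a median of -0.01.

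Promoter windows of 3 of these genes are shown for the interferon-stimulated response element core, written GAAANNGAA and searched on both strands. Capitals mark all matches in the window. The first match lies at -115 in IFI6, and those of HERC5 and TAP1 lie on the reverse strand and overlap each other.
IFI6, chr1:27672269-27672337, minus strand, GRCh38.p14: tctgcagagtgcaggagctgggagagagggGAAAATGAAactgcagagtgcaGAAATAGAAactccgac
HERC5, chr4:88456971-88457039, plus strand, GRCh38.p14: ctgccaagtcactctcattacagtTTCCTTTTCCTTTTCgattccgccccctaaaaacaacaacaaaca
TAP1, chr6:32853793-32853861, minus strand, GRCh38.p14: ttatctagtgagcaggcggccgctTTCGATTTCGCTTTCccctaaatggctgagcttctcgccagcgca
This motif was held by 18.9% of promoters of genes higher in KY170R (17 of 90), 8.77% of those lower (5 of 57), 8.93% of tested genes and 9.86% of all promoters. A STAT site, written TTCNNNGAA and identical on both strands, was held by 11.1%, 10.5%, 8.24% and 9.38% of the same groups. Matches of different motifs did not overlap each other in any of the called genes' promoters.

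Inflammatory cytokines and other NF-kB targets held some of the largest differences. Of 24 tested members, 5 were higher, 0 were lower and 19 did not pass, with a median of 0.79. The called share was 20.8%, beside 1.79% of all tested genes, whose median was -0.002. IL32, a cytokine of epithelial and immune cells, read 20.5 and 22.6 in KY170 by its brightest probe, below the limit at both times, against 323 and 275, at least 12.1-fold higher by that probe (limma adjusted p = 0.00136). A second IL32 probe read 15.3 and 31.2 against 212 and 197, a log2 difference of 2.89 (limma adjusted p = 0.00562). IL1A read 513 and 1935 in KY170 against 3428 and 16233 in KY170R, 7.49-fold higher (limma adjusted p = 3.0e-04). CXCL8, a chemokine that draws neutrophils, read 633 and 1581 against 2061 and 12865, 5.15-fold higher (limma adjusted p = 0.00845). IL1B was 3.55-fold higher (limma adjusted p = 0.00682), although the KY170 array at 24 h (3120) exceeded the KY170R array at 8 h (2249). CFB, a complement factor, was 2.66-fold higher (limma adjusted p = 0.0364). The gap widened from 8 h to 24 h for IL1A (6.68-fold and 8.39-fold), CXCL8 (3.26-fold and 8.14-fold) and IL1B (2.77-fold and 4.53-fold), and with 1 array per line and time that widening was not tested. Each of these values is from 1 array. The next fits dropped 1 KY170R array and the time term, so the other KY170R array was set against both KY170 times. Their moves therefore include the change from 8 to 24 h within a line. Without the KY170R array at 24 h and the time term the log2 differences were 1.78 for IL1A, 1.04 for CXCL8 and 0.50 for IL1B, and without the KY170R array at 8 h they were 4.03, 3.69 and 3.15. S100A8, a calcium-binding protein of inflamed epithelium, was below the limit on both KY170 arrays and read 89.5 and 94.1 in KY170R, at least 3.74-fold higher (limma adjusted p = 0.0210). It was the only call in a separate list of 12 tested S100 genes, whose median was -0.18. Of these, 4 were higher and 6 lower at both times.

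The windows below show the NF-kB site, written GGANTTTCC and searched on both strands. They are from the promoters of CXCL8 (match at -91) and IL32 (matches at -98 and -68). These were the called cytokine genes on the list whose promoters held the site. Uncalled members of the list were not looked up gene by gene. Capitals mark the matches.
CXCL8, chr4:73740448-73740516, plus strand, GRCh38.p14: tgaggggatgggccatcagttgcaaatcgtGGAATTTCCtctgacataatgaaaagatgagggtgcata
IL32, chr16:3065275-3065343, plus strand, GRCh38.p14: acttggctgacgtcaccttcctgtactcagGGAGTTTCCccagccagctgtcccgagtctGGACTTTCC
The site was held by 4.44% of promoters of genes higher in KY170R (4 of 90), 5.26% of those lower (3 of 57), 2.28% of tested genes and 2.01% of all promoters. The shares in both called groups rest on these few promoters.

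**Figure D2:**
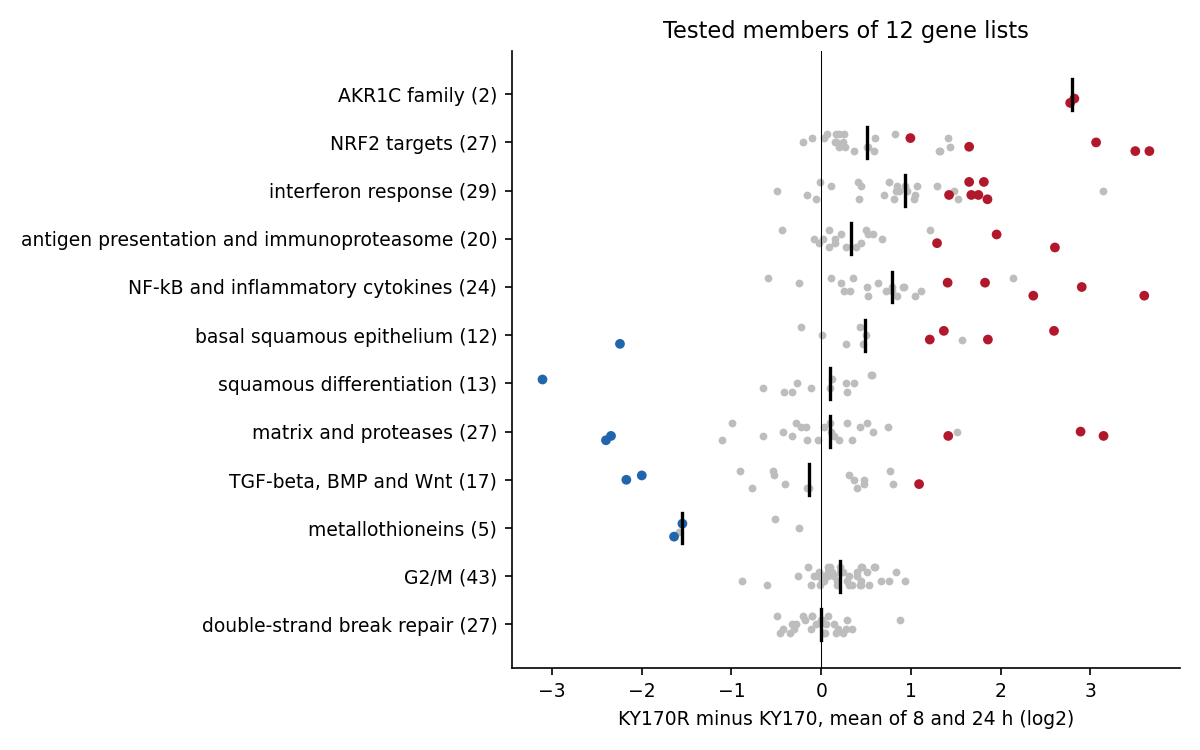
Log2 difference between the lines (KY170R minus KY170, mean of 8 and 24 h) of each tested member of 12 gene lists, with the number tested in parentheses, called members in red (higher) or blue (lower), others in grey and the list median as a black bar. Calls in the NRF2, interferon, antigen presentation and NF-kB lists all lie to the right of 0, the 2 metallothionein calls lie to the left, and G2/M and double-strand break repair hold none.

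Keratins of the squamous layers differed in opposite directions. KRT14, a basal keratin, read 26 and 15.3 in KY170 against 289 and 80.6, 6.04-fold higher (limma adjusted p = 0.0272), with the KY170 value at 24 h below the limit. KRT5, its usual partner, read 484 on both KY170 arrays against 153 and 68.3 in KY170R, 4.73-fold lower (limma adjusted p = 0.0146). KRT13 read 7498 and 7391 in KY170 against 574 and 1295 in KY170R, 8.63-fold lower (limma adjusted p = 0.00158). KRT13 was the only call among 13 tested genes of squamous differentiation. Of 12 basal genes, 4 were higher and 1 was lower (41.7% called, beside 1.79% of all tested genes). The higher ones were KRT14, LAMB3 (a laminin chain that anchors basal cells, 3.62-fold, limma adjusted p = 0.00308), DSG3 (a desmosomal cadherin, 2.58-fold, limma adjusted p = 0.0361) and CDH3 (P-cadherin, 2.31-fold, limma adjusted p = 0.0162).

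Among matrix proteins and proteases 3 of 27 tested genes were higher and 2 lower (18.5% called, beside 1.79% of all tested genes). PLAU, the urokinase plasminogen activator, read 62.0 and 261 in KY170 against 436 and 2038 in KY170R, 7.42-fold higher (limma adjusted p = 0.00109). Leaving out an array together with the time term moved its log2 difference between 1.78 without the KY170R array at 24 h and 4.00 without that at 8 h. Within a time, PLAU was 7.03-fold higher at 8 h and 7.82-fold higher at 24 h. PLAT, the tissue plasminogen activator, was 2.67-fold higher (limma adjusted p = 0.0245), with arrays of the lines overlapping across times. Within a time, PLAT was 2.17-fold higher at 8 h and 3.28-fold higher at 24 h. Without the KY170R array at 24 h and the time term, the log2 difference of PLAT was -0.033. SPP1, or osteopontin, read 3.1 and 6.8 in KY170, below the limit, against 157 and 300, at least 8.86-fold higher (limma adjusted p = 0.00562). TIMP3, an inhibitor of metalloproteinases, read 137 and 323 in KY170 against 2.0 and 65.0, 5.27-fold lower with the first of these raised to the limit (limma adjusted p = 0.00874). The laminin chain LAMA4 was above the limit only in KY170, at least 5.07-fold lower in KY170R (limma adjusted p = 0.0119). In a list of TGF-beta, BMP and Wnt genes, 2 of 17 tested were lower and 1 was higher (17.6% called, beside 1.79%). The growth factors BMP4 and TGFB2 were 4.51-fold and 4.00-fold lower (limma adjusted p = 0.0258 and 0.0195). ID1 was 2.13-fold higher (limma adjusted p = 0.0272), and a second ID1 probe was at 1.27 and not called.

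The largest difference of all was at SNRPN, a splicing-associated gene of chromosome 15 that is expressed from the paternal copy. It read 866 and 884 in KY170 against -0.30 and 4.00 in KY170R, at least 35.7-fold lower (log2 difference -5.16 ± 0.27, limma adjusted p = 3.0e-04). SNURF, which shares a transcript with SNRPN, read 581 and 658 against -9.10 and -0.70, at least 25.2-fold lower (limma adjusted p = 3.0e-04). Neither of these probes gave signal above the limit in KY170R at either time. A second called SNRPN probe was below the limit in KY170R as well (log2 difference -3.80). A dim second SNURF probe, not tested, read 17.6 and 1.6 in KY170 against 27.7 and 21.7, so the SNURF difference rests on 1 probe. H19, a maternally expressed noncoding RNA, went the other way. It read 231 and 107 in KY170 against 2473 and 1836 in KY170R, 13.5-fold higher (limma adjusted p = 3.1e-04). The other 10 of 13 tested imprinted genes did not pass, and UBE3A and MKRN3, neighbours of SNRPN, were at -0.38 and -0.03. The called share of that list was 23.1%, beside 1.79% of all tested genes.

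Other genes at the extremes belonged to no single list. FEZ1, known for its part in axon growth, read 50.1 and 57.4 in KY170 against 744 and 1080, 16.7-fold higher (limma adjusted p = 3.0e-04). Of its 3 other tested probes, 2 were also called and 1 was at 0.24. PKIA and PKIB, inhibitors of the cAMP-dependent protein kinase, differed in opposite directions: PKIA was at least 7.29-fold higher in KY170R (limma adjusted p = 0.00649) and PKIB was 6.20-fold lower (limma adjusted p = 0.00496). IAH1, a hydrolase, read 350 and 237 in KY170 against 0.80 and -1.20, at least 11.7-fold lower (limma adjusted p = 0.00179). CAMKV, a kinase-like protein best known from neurons, read 352 and 384 against 10.3 and 38.0, 12-fold lower (limma adjusted p = 0.00136). MB, or myoglobin, read 451 and 248 against 29.1 and 45.6, 9.19-fold lower (limma adjusted p = 0.00804). KCNK2 (a potassium channel) and TSPYL5 were below the limit on both KY170R arrays, at least 6.80-fold and 5.50-fold lower. The brightest ANKLE1 probe was below it too, at least 6.10-fold lower by that probe, but a second ANKLE1 probe read 62.8 and 53 in KY170 against 65.4 and 29.4 (log2 difference -0.39, limma adjusted p = 0.654), so the probes disagree. Second tested probes also missed the call for CPVL (-1.25), KCNK2 (-0.80) and HSPA2 (-0.85), and 1 of 3 did for MB (-0.63). MTSS1, HCP5 and SIMC1 completed the 15 genes most strongly higher, at 7.11-fold, 6.62-fold and 6.28-fold, each with the KY170 array at 8 h below the limit. DDN, DIO2, CPVL and C5orf46 were 6.49-fold, 6.10-fold, 5.90-fold and 5.29-fold lower. With an array and the time term left out, the log2 difference of DDN ranged from -4.10 without the KY170R array at 8 h to -1.30 without that at 24 h. In all, 21 called probes were below the limit on both KY170 arrays and 16 on both KY170R arrays.

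**Figure D3:**
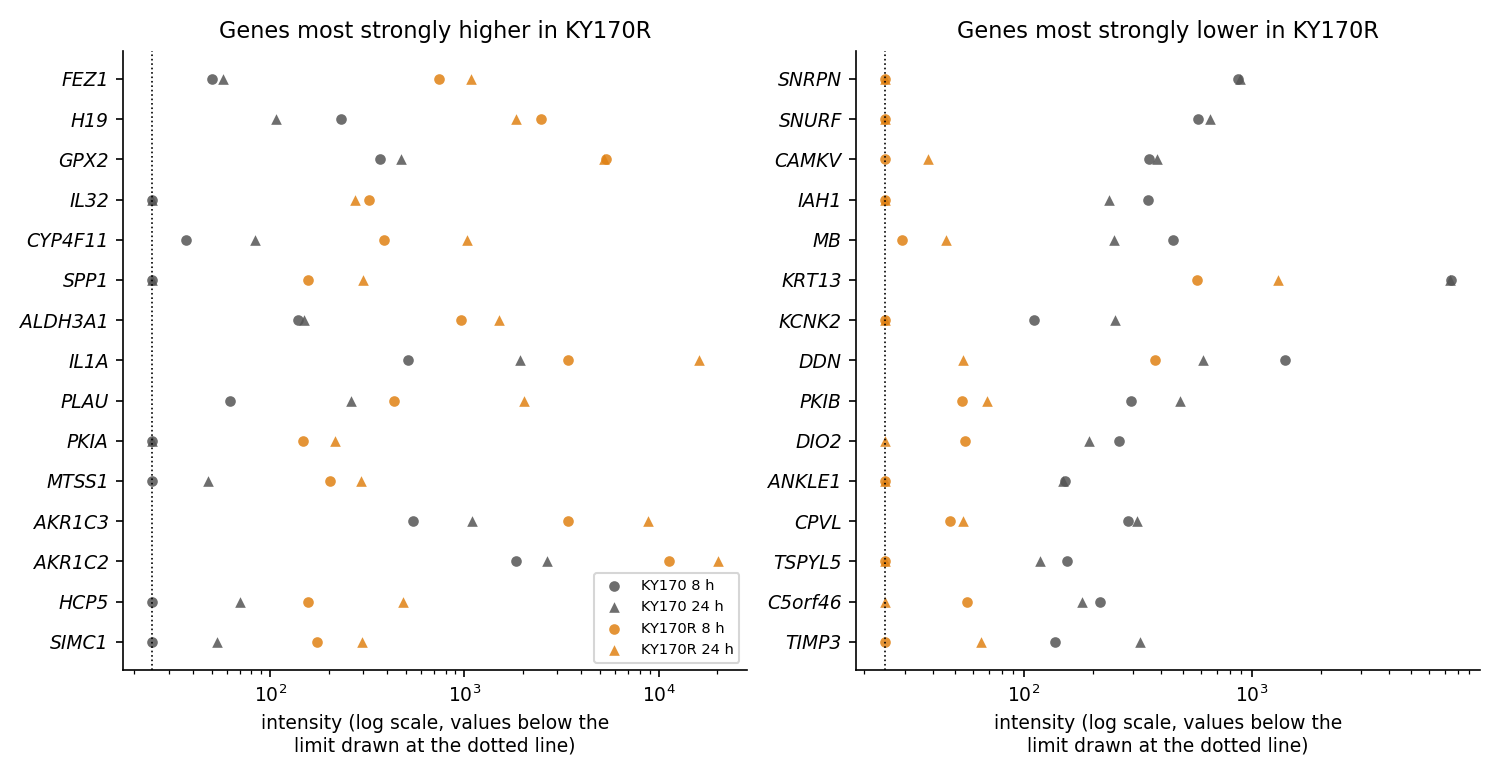
Intensity on a log scale of the 15 genes most strongly higher and the 15 most strongly lower in KY170R, with KY170 in grey, KY170R in orange, circles for 8 h and triangles for 24 h, and values below the limit of 24.533 drawn at the dotted line. For all 30 genes the orange and grey points do not overlap, and SNRPN, SNURF, IAH1, KCNK2, ANKLE1 and TSPYL5 have both orange points at the limit for the probe shown.

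CDKN1A, the p53 target that halts the cell cycle, read 1331 and 2864 in KY170 against 3315 and 7901 in KY170R, 2.62-fold higher (limma adjusted p = 0.00874), and it was the only call among 19 tested p53 targets. Lists of double-strand break repair (27 tested), base excision and Fanconi repair (23), apoptosis regulators (19), DNA replication (34) and G2/M genes (43) had 0 calls. The share called over all tested genes was 1.79%, so lists of this size would hold few calls at that share. At an unadjusted p under 0.05 these lists held 2, 0, 1, 4 and 11 genes, and all tested genes 17.4%. The share was 25.6% in the G2/M list and between 0 and 11.8% in the other 4. The G2/M median was 0.21, beside -0.002 over all tested genes. At both times 51.2% of G2/M genes were higher, beside 30% of all tested genes. Metallothioneins, which bind metals, were lower in KY170R for 2 of 5 tested members. MT1X read 32093 and 12499 in KY170 against 12423 and 3783 in KY170R, 2.92-fold lower (limma adjusted p = 0.00297), and MT1E was 3.12-fold lower (limma adjusted p = 0.0125). Metallothionein genes are close copies, so their probes may share signal, and a second MT1E probe was at -0.87 and not called. HSPA2, a heat shock protein, was 2.68-fold lower (limma adjusted p = 0.0269), and its second tested probe was at -0.85 and not called. It was the only call among 18 tested heat shock genes (5.56%, beside 1.79% of all tested genes).

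The 0 h arrays, which took no part in choosing these probes, showed the same direction for most of them. Of the 247 called probes, 231 (93.5%) had the same sign at 0 h, 11 the opposite sign and 5 no difference, beside 54.7% of all tested probes with the same sign. At least a 2-fold difference in the same direction at 0 h was seen for 151 (61.1%), beside 7.26% of all tested probes. The median difference of the higher probes was 1.24 at 0 h and 1.78 later, and that of the lower probes -1.31 and -1.70. When the later difference was set against that at 0 h over all 6 arrays, 0 of 16333 probes (0%) were called in limma, the smallest adjusted p was 0.140, and 1260 probes had an unadjusted p under 0.05. That fit also leaves 1 residual degree of freedom and has 1 array per line at 0 h. It could miss large changes, so the count of 0 does not show that the differences stayed the same. AKR1C3 was 1.66 higher in KY170R at 0 h and GPX2 3.26 higher on the log2 scale, and SNRPN was 4.95 lower (difference -4.95). IL1A was 0.21 at 0 h and 2.90 later (adjusted p = 0.143 in limma for the change). MT1X and MT1E were higher in KY170R at 0 h, by 0.65 and 1.39, and lower later, with adjusted p-values of 0.143 and 0.190 in limma for the change.

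**Figure D4:**
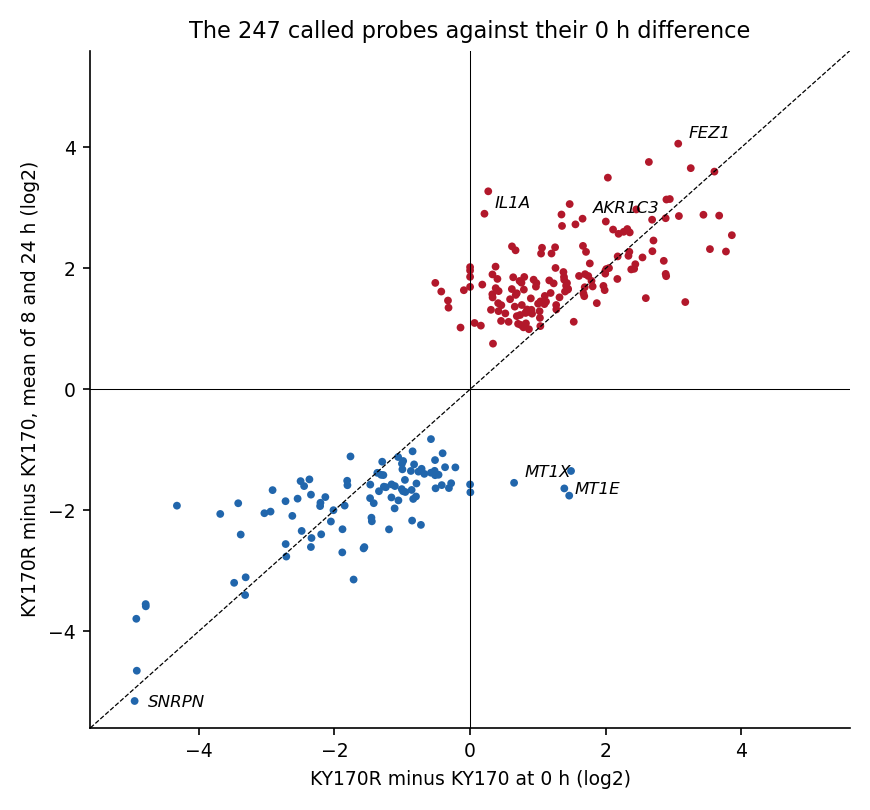
Log2 difference between the lines at 0 h (horizontal axis) and its mean over 8 and 24 h (vertical axis) for the 247 called probes, red for higher and blue for lower in KY170R, with the dashed line marking equal differences. Of these, 231 have the same sign on both axes, and MT1X and MT1E are among the 11 in the opposite quadrants.

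Most genes of chromosome 22 read lower in KY170R. This pattern was noticed after the values were seen and has no test. Over its 250 tested genes the median difference was -0.46, against medians between -0.09 and 0.16 on the other chromosomes. The median was -0.45 at 8 h, -0.50 at 24 h and -0.25 at 0 h. At both later times 70.4% of its genes were lower, beside 30.4% of all tested genes. The shift was spread along the chromosome, with medians between -0.63 and -0.34 in all 10 runs of 25 neighbouring genes. It was -0.47 over the 219 genes above the limit on all 4 arrays. Of its 250 tested genes 9 were called lower and 1 higher, beside 0.712% and 1.08% of all tested genes. The lower ones were MB, TIMP3, SNAP29, NF2, WNT7B, L3MBTL2, SCO2, FOXRED2 and MIEF1, and the higher one was PANX2. NF2, a tumour suppressor of contact-dependent growth control, read 447 and 321 in KY170 against 141 and 109 in KY170R, 3.05-fold lower (limma adjusted p = 0.0209). The other tested NF2 probes were lower as well, at -0.79 and -1.46, but were not called.

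The lowest single run of 25 genes was on chromosome 3, from SCHIP1 to NCEH1. Its median was -0.91, and -0.96 at 0 h. At both later times 76.0% of its genes were lower, beside 30.4% of all tested genes. In this run 4 genes were called lower and 0 higher, beside 0.712% and 1.08% of all tested genes. The 4 were B3GALNT1, MYNN, EIF5A2 and TNIK. B3GALNT1, a glycosyltransferase, read 1119 and 935 in KY170 against 393 and 220 in KY170R, 3.48-fold lower (limma adjusted p = 0.0115). Its other tested probes were at -1.59 (called) and at -1.26 and -1.14 (not called). The run with the highest median was on chromosome 6, from H3C4 to ZNF165, at 0.51. At both times 76.0% of its genes were higher, beside 30% of all tested genes. Of the last 2 runs of chromosome 12, the one from LINC02985 to GTF2H3 had a median of 0.49 and 92.0% of genes higher at both times. Copy number was not measured, and its part in these runs was not tested.

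**Figure D5:**
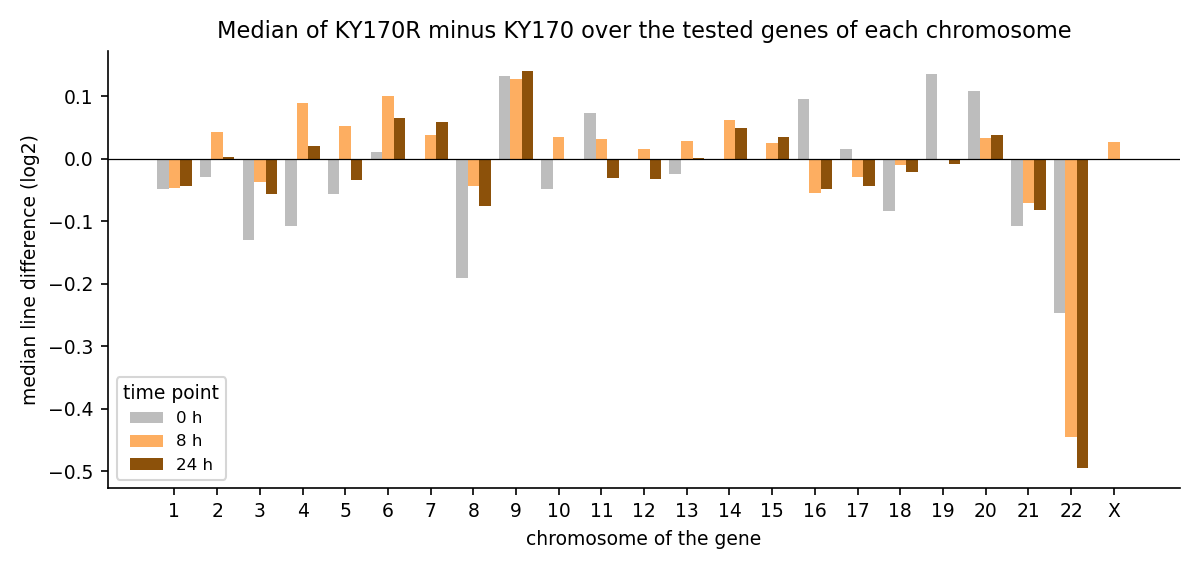
Median log2 difference between the lines (KY170R minus KY170) over the tested genes of each chromosome, as bars from 0, at 0 h (grey), 8 h (light orange) and 24 h (brown). Chromosome 22 stands below the others at all 3 times, at -0.25, -0.45 and -0.50.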

How the data were processed

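RNA was hybridized to Illumina Human-6 V3 bead arrays, and the deposited values are intensities on a linear scale. The authors produced these intensities with Illumina BeadStudio, with background subtracted and arrays normalized before deposit (29.9% of values were below 0 and medians lay between 6.458 and 6.470). The version and the method of normalization are not given in the sources used here, nor is whether a column pools the triplicate runs of the methods. The score the methods name for calling genes was not computed. Probes were named through the platform annotation (27578 with 1 symbol, 13 with several, 21212 with none), updated by gene identifier through a RefSeq table of GRCh38.p14, in which 27541 were found. That table gave chromosome and gene order only, and promoter sequences are RefSeq's.

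Log2 of values floored at 24.533 was fitted with limma 3.58.1 in R 4.3.3 (line and time as terms, trended and robust prior variance, two-sided), which leaves 1 residual degree of freedom beside 1.58 to 7.54 prior degrees of freedom. No label states separate cultures for the arrays. The residual of each probe is the change of its line difference from 8 to 24 h. A line difference that changes with time therefore counts as spread in the p-values and SEs. The p-values measure only that spread between these arrays, moderated by other probes, and it may be technical. The number of arrays limits the precision (median SE 0.249 on the log2 scale). Each gene was its tested probe with the highest mean. Differences of floored values understate the change of dim genes, and "at least" marks a line below the limit at both times. The rule named AKR1C3, the 15 largest differences in each direction among called genes above the limit on all arrays of a line, up to 6 called members of each list (or the 2 largest where none was called), and the 6 with the largest change from 8 to 24 h. Not all of these are described. Called ones left out above include ACTA2 (3.38-fold higher), HEY1 (3.39-fold higher), LRP3 (at least 5.85-fold higher) and MAGEA12 (2.45-fold lower). Genes given outside the rule include SLC7A11, GCLM, NFE2L2, KEAP1, MX1 and IFITM1. The genes named for chromosome runs were chosen after their values were seen. The members, the rule and the 43 gene lists (1093 entries) were chosen with earlier results of these data known. The fit was tested on simulated data. Alternatives changed the floor, filter, prior, time term, normalization, minimum change, test and arrays. The test against 0 h and the chromosome medians were added after seeing the data.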

Additional observations from a re-analysis of the deposited data

Results flagged for a closer look

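At 8 h and 24 h the line difference of 3 named genes ran in opposite directions by more than 0.5 on the log2 scale, and with 1 array per line and time this was not tested. CCN2, a matrix-associated growth factor, read 307 and 141 in KY170 against 166 and 2388 in KY170R, so that its difference was 4.97 higher at 24 h than at 8 h. COXFA4L2, a mitochondrial protein induced in hypoxia, read 67.6 and 52.5 in KY170 against 34.6 and 218 in KY170R, a change of 3.02 between the times. MUC20, a membrane mucin, read 122 and 104 in KY170 against 46.8 and 150 in KY170R, a change of 1.91. At 0 h the differences were -3.24, -2.76 and -0.86 in turn.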

How the results depend on the processing

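No call of limma held without the time term. The 247 called probes became 0 without the time term, 0 with each array left out in turn and no time term (range 0 to 0), 1 with a floor of 50, 125 with probes above the limit on at least 1 array, 76 with one prior variance for all probes, 57 with a minimum 1.5-fold change, 9 with the methods' t-test (740 at an unadjusted p under 0.05) and 424 with the 0 h arrays included. They were 225 with a floor of 1, 169 with probes above the limit on all 4 arrays, 215 with a prior that was not robust, 293 after quantile normalization and 234 after median centring. The 357 probes at least 2-fold apart at both times became 223 above the limit on all 4 arrays. AKR1C3 kept its size and lost its call without the time term (2.82, adjusted p = 0.637 in limma), with a floor of 50 (2.82) and under the methods' t-test (2.82), and ranged from 2.14 to 3.51 with an array left out. Of the 63 called genes named by the rule, 28 moved by over 1.5 times with an array left out, a fit that also drops the time term. Of the 62 other called genes named by the rule, 57 kept direction and call with a floor of 1, 35 with one prior variance and 0 without the time term. PLAT ranged from -0.033 to 2.87 with an array left out, the lowest without the KY170R array at 24 h. The uncalled CCN2 and COXFA4L2 turned to -0.014 and -0.56 with the 0 h arrays included. With an array left out, CCN2 ranged from -0.32 to 3.52, COXFA4L2 from -0.79 to 1.87, FOS from -0.059 to 3.71 and MUC20 from -1.27 to 0.41. A fit with no filter on low values could not be made, since most probes then have no spread.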

Other observations

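Immediate early and stress genes stood out by their 24 h difference alone, and none of those named here was called. EGR1, an immediate early transcription factor, read 194 and 61.0 in KY170 against 153 and 1364 in KY170R, on the log2 scale -0.34 at 8 h and 4.48 at 24 h (adjusted p = 0.654 in limma). FOS, its usual companion, read 58.6 and 92.5 against 70.7 and 966 (differences of 0.27 and 3.39, adjusted p = 0.281 in limma). HSPA5, the chaperone of the endoplasmic reticulum, read 836 and 377 against 787 and 4760 (differences of -0.09 and 3.66, adjusted p = 0.618 in limma). DDIT3, a transcription factor of the stress response, read 351 and 375 against 356 and 2254 (differences of 0.02 and 2.59, adjusted p = 0.376 in limma). For these 4 genes the KY170R array at 24 h was the highest of the 4, and the 24 h differences rest on that 1 array. At 0 h the differences were -1.19 for EGR1, -0.33 for FOS, -2.18 for HSPA5 and -1.37 for DDIT3.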
